A study of Mus musculus with 8 samples.

Results

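The genes described here encode 8 regulators of G protein signalling (RGS): Rgs1, Rgs2, Rgs3, Rgs10, Rgs14, Rgs16, Rgs18 and Rgs19. Every probe that the platform annotation ties to one of these symbols was taken, which gave 18 of the 25697 probes on the array. Of these, 10 probes from 7 genes passed the detection filter, meaning a detection p-value under 0.05 on at least 4 of the 8 arrays, and 8 probes did not. The 8 are among 16593 genes with a probe. They were chosen on the human and rat IAPP intensities themselves, and their differences are therefore given as a description, with no p-value, and the counts of members support nothing beyond themselves.

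G protein-coupled receptors act through a heterotrimeric G protein, whose alpha subunit is active while it holds GTP. RGS proteins bind the active alpha subunit and speed up its hydrolysis of GTP, so that the signal ends sooner. In leukocytes, including macrophages, they are best known for limiting how long chemokine and other chemoattractant receptors signal. The small R4 proteins Rgs1, Rgs2, Rgs16 and Rgs18 consist of little more than the catalytic RGS domain, Rgs10 is the smallest member of the R12 group, Rgs14 of the same group carries further domains, and Rgs19 belongs to the RZ group.

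The arrays held RNA from macrophages grown out of C57BL/6 mouse bone marrow, 4 wells given human islet amyloid polypeptide (IAPP) and 4 wells given rat IAPP. Human IAPP is the pancreatic hormone peptide that aggregates into amyloid, whereas the rat version, with another sequence, does so poorly. Both groups received 15 µM peptide for 12 hours per the titles (the treatment protocol prints the same figure in mM), after 7 days of growth with 15% L929-conditioned medium, 12 hours without it, and in medium with 10% serum. Wells of a plate are the replicates and no animal, age or sex is given, so the spread is that between wells and may be technical. Wells without peptide were not analysed here, so higher and lower always mean human IAPP relative to rat IAPP.

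Mean raw signal was 1144 to 1368 intensity units on the human IAPP arrays, against 1180 on rat IAPP array 4 and 1523 to 1967 on rat IAPP arrays 1 to 3. Rat array 4 stood apart: its log2 differences from the other rat arrays had a mean SD of 0.376, against 0.269 to 0.286 for the other rat arrays and 0.272 to 0.285 for the human arrays. All 6 macrophage markers with a probe were detected on all 8 arrays, among them Adgre1 and Itgam. No marker of T cells, B cells, mast cells or fibroblasts was detected on 4 or more arrays. Of the platelet markers, Itga2b, Gp9 and Gp1bb were detected on no array, while Pf4 was detected on all 8, Ppbp on 5 with a log2 difference of -0.39 (limma adjusted p = 0.19), and Pf4 was lower with human IAPP (log2 intensity 11.41 ± 0.08 with human IAPP, 11.87 ± 0.09 with rat IAPP, SD, n = 4 each). The summed level of the 5 platelet markers was mostly that of Pf4, as Ppbp averaged a log2 intensity of 6.20 with human IAPP and 6.59 with rat IAPP. The sum was 2750 to 3049 units with human IAPP and 3622 to 4147 units with rat IAPP. Its part in the results below was not tested. Of 6 neutrophil markers S100a8 was detected on all 8 arrays and Elane on 4, with S100a9, Mpo and Ngp on 0, and of 5 dendritic cell markers Siglech was detected on 4 and the others on 0. Among the macrophage markers, Mertk (-1.18), Fcgr1 (-1.63) and Adgre1 (-0.47) fell and Cd14 rose (0.62) on the log2 scale (limma adjusted p of 4.3e-05, 8.6e-05, 8.8e-04 and 6.1e-05 in that order).

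All values below on the log2 scale are background-corrected and quantile-normalised intensities. Among the 10 tested RGS probes, the fit across all probes called 6 higher and 2 lower with human IAPP and did not call 2. Over all 11451 tested probes it called 54.4%, with 24.5% higher and 29.9% lower (limma, Benjamini-Hochberg). Of all calls, 45.1% were higher, a share of 15.6% with median scaling of the arrays and of 55.4% with the authors' rescaled values. The human and rat wells did not overlap for 8 of the 10 RGS probes, against 49.9% of all tested probes. The median log2 difference of the 10 probes was 0.58, and that of all tested probes was -0.04. These probe counts and this median take in Rgs1 by 3 probes and Rgs3 by 2. With 1 probe per gene, 4 of the 7 genes were called higher and 2 lower.

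**Figure D1:**
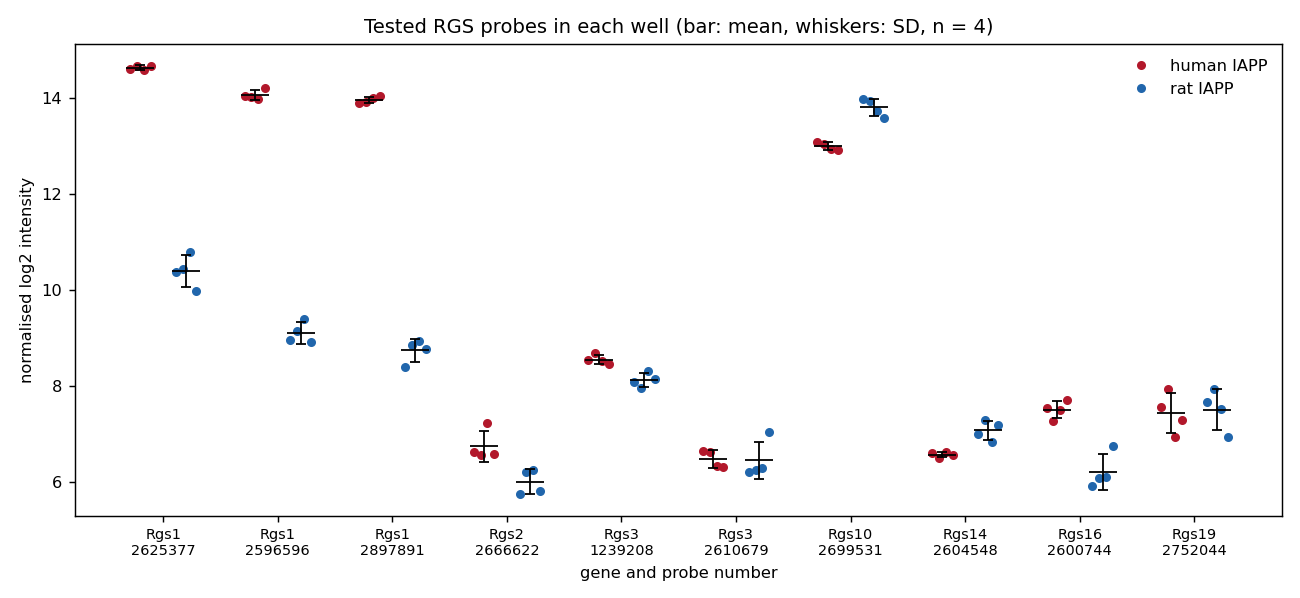
Normalised log2 intensity (vertical axis) of the 10 tested RGS probes (horizontal axis, gene and probe number) in each well, human IAPP in red left of rat IAPP in blue, with the mean and SD of 4 wells. The 3 Rgs1 probes averaged 13.96 to 14.63 with human IAPP and 8.74 to 10.39 with rat IAPP, with no overlap, while the Rgs19 wells overlapped.

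Rgs1 stood at the far end of the family. Its protein is a GTPase activator for Gi and Gq alpha subunits that is known as a brake on chemokine responses of B and T lymphocytes. Probe ILMN_2625377 gave raw signals of 23674, 22967, 25506 and 21580 units in human IAPP wells 1 to 4, against 1856, 1875, 3268 and 1077 units in rat IAPP wells 1 to 4. The lowest human well was thus far above the highest rat well before any normalisation. Probe ILMN_2596596 read 15792, 14583, 16809 and 15439 units with human IAPP, against 889, 969, 1452 and 677 units with rat IAPP. Probe ILMN_2897891 read 14325, 13136.5, 16950 and 13686.5 units with human IAPP, against 698, 846, 1147 and 646 units with rat IAPP. For all 3 probes the highest raw value of the rat group was in well 3 and the lowest in well 4, the rat arrays with the highest and the lowest mean signal overall.

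On the normalised log2 scale, probe ILMN_2625377 averaged 14.63 ± 0.05 with human IAPP and 10.39 ± 0.34 with rat IAPP (SD, n = 4 each), a difference of 4.24 (SE 0.15) or 18.9-fold. Probe ILMN_2596596 averaged 14.06 ± 0.10 with human IAPP and 9.10 ± 0.22 with rat IAPP, a difference of 4.96 (SE 0.12) or 31.1-fold. Probe ILMN_2897891 averaged 13.96 ± 0.06 with human IAPP and 8.74 ± 0.24 with rat IAPP, a difference of 5.22 (SE 0.12) or 37.3-fold. The 3 probes are tied to 1 annotated transcript, pointed the same way and differed in the size of the fold. All 3 were detected on all 8 arrays, and none of their signals reached the 60000 units taken here as near the scanner ceiling. Wells given rat IAPP varied more than wells given human IAPP for each probe. Against rat well 4 alone, the rat array with a mean signal like that of the human arrays, the 3 differences were 4.79, 5.29 and 5.31. In values against rat well 4 alone, here and below, the spread comes from the human wells and the lone rat well is assumed to vary like them.

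**Figure D2:**
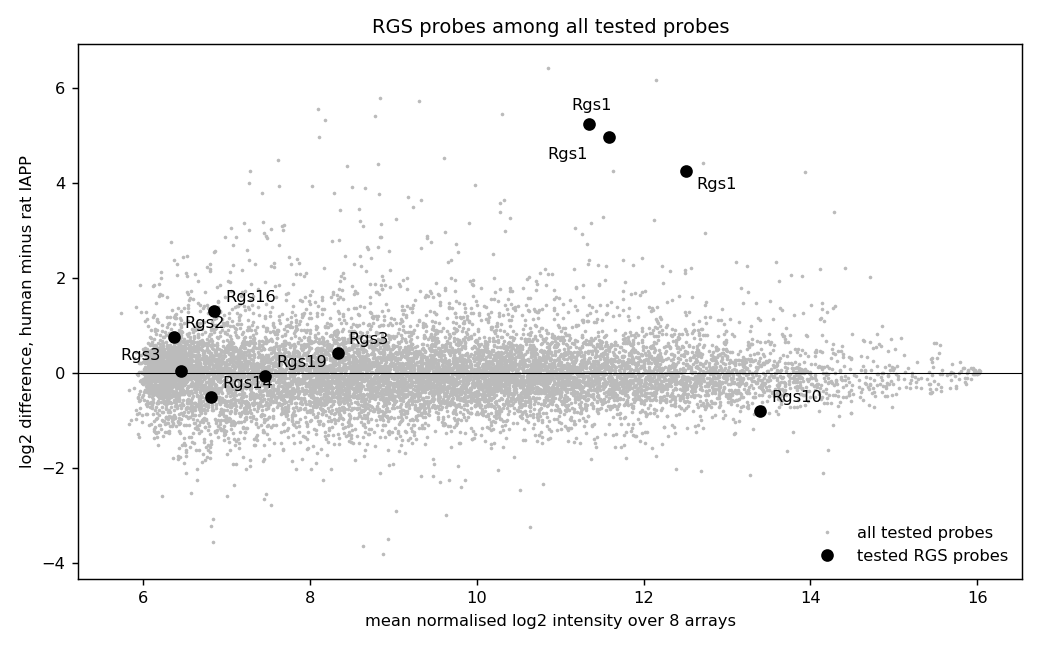
Log2 difference of human minus rat IAPP (vertical axis) against mean normalised log2 intensity over 8 arrays (horizontal axis) for all 11451 tested probes in grey and the 10 tested RGS probes in black. The 3 Rgs1 probes, at 4.24 to 5.22, lie far above most of the cloud, and the other RGS probes lie between -0.81 for Rgs10 and 1.30 for Rgs16.

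Rgs16, another R4 protein that acts on Gi and Gq alpha subunits, was the second highest gene of the family by difference. Its normalised log2 intensity was 7.53, 7.27, 7.51 and 7.71 in human IAPP wells 1 to 4, against 5.91, 6.07, 6.10 and 6.74 in rat IAPP wells 1 to 4. The groups did not overlap, and rat well 4 was the closest to the human wells. The difference was 1.30 (SE 0.18), or 2.46-fold. The signal was close to background: 408 to 458 raw units with human IAPP, against 348 to 414 units with rat IAPP, where the raw ranges did overlap. The probe was detected in 4 of 4 human wells and 3 of 4 rat wells. The difference was 0.38 without background correction and 0.37 with the authors' rescaled values, and 0.69 against rat well 4 alone.

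Rgs2, an R4 protein known for its preference for Gq alpha subunits, gave a smaller difference. Its normalised log2 intensity was 6.62, 6.55, 7.22 and 6.57 in human IAPP wells 1 to 4, against 5.74, 6.19, 6.25 and 5.81 in rat IAPP wells 1 to 4. The groups were apart by a small margin, and human well 3 lay above the other human wells. The difference was 0.74 (SE 0.18), or 1.67-fold, and 0.59 without human well 3. The raw signals overlapped, at 381 ± 31.3 units with human IAPP and 377 ± 43.2 units with rat IAPP (SD, n = 4 each). The groups were apart on the normalised scale alone. The difference was 0.19 without background correction and 0.20 with the authors' rescaled values, and with median scaling, at 0.53, it was no longer called. Rgs2 was detected in 4 of 4 human wells and 2 of 4 rat wells.

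The regions around the starts of Rgs2, Rgs16 and Rgs10 are shown because these genes lie on both sides of the comparison, Rgs2 and Rgs16 higher and Rgs10 lower with human IAPP. Each runs from 250 bases before to 50 bases after the start (RefSeq, build GRCm38.p6, gene strand, 5′ to 3′). Capitals mark matches on either strand to TGACGTCA (the cAMP response element), its half-site TGACG, the AP-1 motif TGANTCA, the EGR motif GCGNGGGCG, the NF-kB consensus, the CCAAT box and the TATA box TATAAA, of which the half-site lies inside the full element. The RefSeq table held such regions for 5 of the 8 genes and none for Rgs1, Rgs14 or Rgs18. The regions of Rgs3 and Rgs19 were searched too but are not printed.
Rgs2 chr1:144004100-144004399, minus strand: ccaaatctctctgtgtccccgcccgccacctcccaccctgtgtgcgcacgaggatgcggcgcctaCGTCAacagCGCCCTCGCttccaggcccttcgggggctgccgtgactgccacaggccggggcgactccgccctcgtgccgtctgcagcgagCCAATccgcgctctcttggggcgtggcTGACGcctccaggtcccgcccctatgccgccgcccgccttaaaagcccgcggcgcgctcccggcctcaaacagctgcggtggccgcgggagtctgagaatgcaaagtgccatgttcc
Rgs16 chr1:153740103-153740402, plus strand: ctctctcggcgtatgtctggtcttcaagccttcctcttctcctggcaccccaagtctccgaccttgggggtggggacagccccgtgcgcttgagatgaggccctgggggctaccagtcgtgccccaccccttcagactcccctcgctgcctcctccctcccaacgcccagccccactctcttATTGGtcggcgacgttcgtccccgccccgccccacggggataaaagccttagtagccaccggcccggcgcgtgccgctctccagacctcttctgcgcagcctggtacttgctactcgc
Rgs10 chr7:128418123-128418422, minus strand: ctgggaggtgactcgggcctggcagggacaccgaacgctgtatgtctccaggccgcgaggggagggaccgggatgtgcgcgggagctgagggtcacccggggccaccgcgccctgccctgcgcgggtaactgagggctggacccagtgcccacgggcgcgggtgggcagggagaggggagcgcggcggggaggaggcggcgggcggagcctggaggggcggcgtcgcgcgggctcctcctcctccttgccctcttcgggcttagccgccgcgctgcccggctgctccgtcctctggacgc
The Rgs2 region held 4 matches: the TGACG half-site starting at base -185 on the opposite strand and at base -67 on the gene's strand, a GCGNGGGCG match at -176 and CCAAT at -94, counted from the start. The Rgs16 region held CCAAT on the opposite strand at -68 as its only match, and the Rgs10 region held 0 matches. Among the 32851 regions of this length, 20.8% held TGACG, 5.55% held GCGNGGGCG and 37.4% held CCAAT on either strand. TGACGTCA was in 1.79%, TGANTCA in 7.81%, the NF-kB consensus in 8.46% and TATAAA in 13.6% of them. The 3 regions shown were rich in G and C, at 70%, 66% and 76% for Rgs2, Rgs16 and Rgs10, where the median of all regions was 52.7%. A match in letters is a description and was not tested for binding.

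Rgs3, whose longer isoforms carry further domains beside the RGS domain, was read by 8 probes, tied by the annotation to 3 transcripts. Probe ILMN_1239208, the single probe of its transcript, had log2 intensities of 8.55, 8.67, 8.52 and 8.44 in human IAPP wells, against 8.08, 7.96, 8.32 and 8.15 in rat IAPP wells. The groups did not overlap, and the difference was 0.42 (SE 0.09), or 1.34-fold. Before normalisation the groups did overlap, at 524 to 619 raw units with human IAPP and 522 to 857 units with rat IAPP. With median scaling, which moved the median of all probes to -0.39, the difference turned to -0.02, or 0.37 above that median. It was 0.22 without background correction and with the authors' rescaled values alike.

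Probe ILMN_2610679 of Rgs3 had log2 intensities of 6.64, 6.62, 6.33 and 6.31 in human IAPP wells, against 6.21, 6.25, 6.29 and 7.03 in rat IAPP wells. The groups overlapped, and rat well 4 lay above all other wells. The difference was 0.03 (SE 0.18) with all wells, 0.24 without rat well 4 and -0.46 against rat well 4 alone. The other 6 Rgs3 probes were detected on no array. Of these 6, all but ILMN_3132318 are tied to the same transcript as ILMN_2610679.

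Rgs10 had the most negative difference of the family. Its protein acts on Gi alpha subunits and is known from mouse microglia and macrophages as a limiter of inflammatory signalling. Raw signal was 8024, 7238, 7973 and 6238 units in human IAPP wells 1 to 4, against 17900.5, 17118.5, 20563.5 and 9672 units in rat IAPP wells 1 to 4. Every human well was below every rat well, and rat well 4 was the lowest of its group. On the log2 scale Rgs10 averaged 12.99 ± 0.08 with human IAPP and 13.80 ± 0.18 with rat IAPP (SD, n = 4 each), a difference of -0.81 (SE 0.10) or 1.75-fold lower. The difference was -0.61 against rat well 4 alone, -0.54 with the authors' rescaled values and -1.05 with median scaling. In a bulk sample, fewer cells of a type and less RNA per cell cannot be told apart.

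Rgs14 also inhibits Gi alpha subunits, and its GoLoco motif in addition holds them in the GDP-bound state. Its log2 intensity was 6.60, 6.49, 6.61 and 6.56 in human IAPP wells 1 to 4, against 7.00, 7.29, 6.83 and 7.17 in rat IAPP wells 1 to 4. The groups did not overlap, in raw units either (349 to 389 with human IAPP, 417 to 506 with rat IAPP). These signals were near background, which also differed between arrays. The median undetected probe lay at 291 to 318 units on human arrays and 309 to 350.5 units on rat arrays. The difference was -0.51 (SE 0.10), or 1.42-fold lower. It shrank to -0.14 without background correction and to -0.11 with the authors' rescaled values, where it was not called.

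Rgs19, also called GAIP, which acts on Gi alpha subunits, was detected in all 8 wells. Its log2 intensity was 7.56, 7.92, 6.94 and 7.29 in human IAPP wells 1 to 4, against 7.65, 7.93, 7.52 and 6.92 in rat IAPP wells 1 to 4. The groups overlapped almost fully, with a difference of -0.08 (SE 0.25). That SE was the largest among the 10 tested RGS probes. The value was 0.47 against rat well 4 alone and -0.50 with median scaling.

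Rgs18, an R4 protein best known from platelets and megakaryocytes, was read by 2 probes, and neither passed the detection filter. Probe ILMN_1221931 gave 305, 306, 324 and 285 raw units in human IAPP wells, against 341, 379, 404 and 339 units in rat IAPP wells, and was detected in rat well 3 alone. These raw values did not overlap, whereas the normalised log2 values did, at 5.20 to 5.69 with human IAPP and 5.67 to 6.00 with rat IAPP. Probe ILMN_2990103 gave 307 to 325 units with human IAPP and 322 to 367 units with rat IAPP, and was detected in 0 of 8 wells. For comparison, the median undetected probe lay at 291 to 318 units on human arrays and 309 to 350.5 units on rat arrays. No fold is given for Rgs18.

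**Figure D3:**
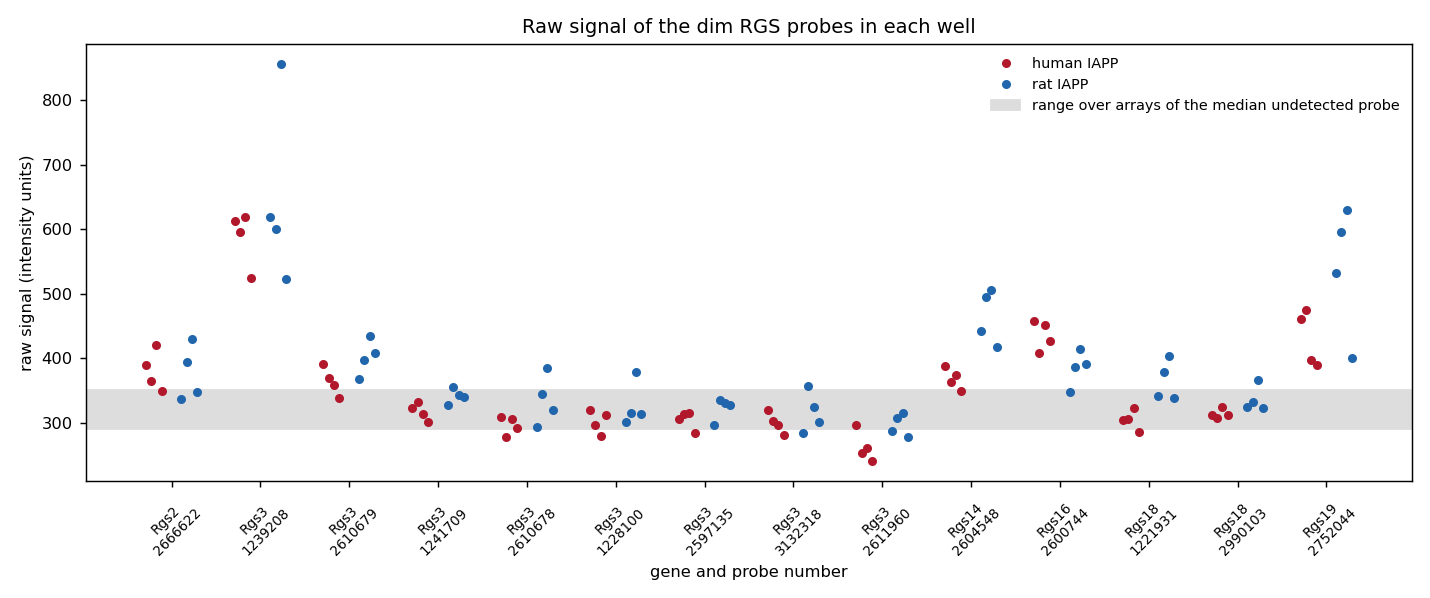
Raw signal in intensity units (vertical axis) of the 14 RGS probes other than those of Rgs1 and Rgs10 (horizontal axis), each dot 1 well, human IAPP in red left of rat IAPP in blue, with the range over arrays of the median undetected probe as a grey band. The 6 undetected Rgs3 probes and both Rgs18 probes sit in or near the band, and the raw wells of Rgs2 overlap.

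Of these genes, Rgs2, Rgs1 and Rgs18 are close neighbours on chromosome 1, in that order, in a stretch whose other protein-coding genes in the RefSeq table are Rgs13 and Rgs21. The difference was 4.24 to 5.22 for the Rgs1 probes and 0.74 for Rgs2, the single neighbour with a measured difference, while the Rgs13 and Rgs18 probes did not pass the detection filter and Rgs21 had 0 probes. Rgs16 lies elsewhere on chromosome 1 next to Rgs8, an RGS gene best known from the brain. Rgs8 was detected in 2 of 4 human wells and 2 of 4 rat wells, with a log2 difference of 0.39 (SE 0.26) that did not pass the test (limma adjusted p = 0.23). It was 0.65 without rat well 4 and was then called (adjusted p = 0.023), and it turned to -0.25 against rat well 4 alone. Rgs19, Rgs3, Rgs10 and Rgs14 lie on chromosomes 2, 4, 7 and 13.

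**Figure D4:**
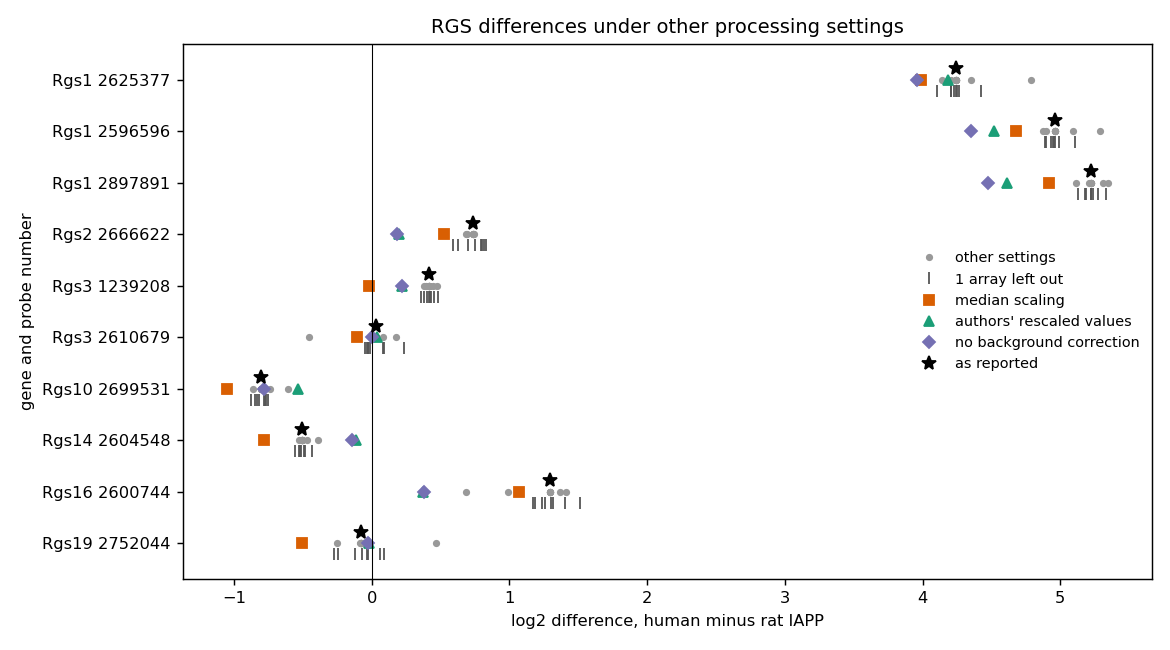
Log2 difference of human minus rat IAPP (horizontal axis) for each tested RGS probe (vertical axis) as reported (star), with 1 array left out (ticks), and under the other processing settings (grey dots, with 3 settings marked). The Rgs1 probes stayed between 3.96 and 5.35 in every setting that fitted them, whereas Rgs2, Rgs14 and Rgs16 shrank most without background correction and with the authors' rescaled values, and the Rgs3 probe ILMN_1239208 crossed 0 with median scaling.

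The rest of the family was mostly undetected in these cells. Of the 13 other Rgs-named genes listed, 10 had a probe and 2 passed the detection filter. Besides Rgs8 this was Rgs12, a large protein with an RGS and a GoLoco motif, at a log2 intensity of 6.13 ± 0.14 with human IAPP and 6.39 ± 0.37 with rat IAPP (SD, n = 4 each). Its difference of -0.26 (SE 0.17) did not pass the test (limma adjusted p = 0.22). It was -0.63 against rat well 4 alone and -0.09 without that well, which read 6.93 and was the highest of the 8. Rgs20 was detected on 1 rat array, and probes of Rgs4, Rgs5, Rgs6, Rgs7, Rgs9, Rgs13 and Rgs17 were detected on no array.

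RGS-type domains also occur in other proteins, of which 7 were tested. With human IAPP 2 rose and 3 fell, beside 23.4% higher and 32% lower among all 7809 genes tested, each gene read by its brightest tested probe. Grk5, a kinase that marks activated receptors for arrestin binding, fell to a log2 intensity of 8.91 ± 0.16 with human IAPP, against 9.76 ± 0.06 with rat IAPP (difference -0.85, SE 0.09, limma adjusted p = 5.8e-05). A second Grk5 probe gave -1.24. The sorting nexin gene Snx14 fell by 0.86 (SE 0.09) and Arhgef1 by 0.43 (SE 0.10, adjusted p = 0.0040), while Snx25 rose by 0.39 (SE 0.07) and Akap10, which encodes an anchor of protein kinase A, by 0.44 (SE 0.10). Their limma adjusted p were 5.4e-05 for Snx14, 0.0011 for Snx25 and 0.0039 for Akap10, and a second probe of Snx25 (0.08) and of Akap10 (0.13) was not called. The rises were lost with median scaling, where Snx25 turned to -0.05 and Akap10 was 0.01, and Akap10 was 0.23 against rat well 4 alone. A second Arhgef1 probe gave -0.20 and was not called either. Grk6 was not called by its brightest probe (-0.27, limma adjusted p = 0.11), but a second probe gave -0.84 and was called (adjusted p = 0.0025).

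The alpha subunits are the proteins RGS domains act on. Of 10 tested genes 2 rose and 3 fell, near the shares over all genes (23.4% higher, 32% lower). Their median difference was 0.10 on the log2 scale (all genes -0.06). Gnai2, encoding the Gi subunit that couples most chemokine receptors in leukocytes, fell by 0.45 (SE 0.09, limma adjusted p = 0.0017), but by the authors' rescaled values it was -0.16 and no longer called (adjusted p = 0.072). Gna13 rose by 0.77 (SE 0.11, adjusted p = 3.3e-04; 0.52 and adjusted p = 0.08 with median scaling), while its relative Gna12 fell by 0.56 (SE 0.07, adjusted p = 2.1e-04). The Gq-type gene Gna11 fell by 0.77 (SE 0.19, adjusted p = 0.0062), and Gnaq itself had a difference of -0.05 and was not called. Gnat3, a subunit known from taste cells, rose by 1.36 (SE 0.27, adjusted p = 0.0021) from a signal near background that was detected in 2 of 4 rat wells, and the difference was 0.38 without background correction.

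Of the beta and gamma subunits, 1 of 11 tested genes rose and 2 fell by the brightest probe, with a median of 0.03. Over all genes 23.4% were higher and 32% lower, with a median of -0.06. Gng2 and Gngt2 were not called by that probe. A second probe of each was called, at -0.59 for Gng2 (limma adjusted p = 0.020) and 0.32 for Gngt2 (adjusted p = 0.013). Gng10 fell by 0.80 (SE 0.09, limma adjusted p = 6.4e-05) and Gnb5, the beta subunit that pairs with RGS proteins of the R7 group, by 0.69 (SE 0.10, adjusted p = 4.3e-04), with Gnb5 at -0.25 by the authors' rescaled values. Gnb4 rose by 0.59 (SE 0.17, adjusted p = 0.017), which was not called under median scaling (0.28, adjusted p = 0.31) and was 0.41 against rat well 4 alone, and a second Gnb4 probe gave 0.46 and was not called (adjusted p = 0.073). Gng5 was not called (difference -0.25, adjusted p = 0.072), and 15 of the 21 alternatives did not call it either. The other 6 called it lower. These were without human well 4 (adjusted p = 0.043), without rat well 4 (0.034) and without background correction (0.033). Median scaling (0.023), a trended prior (0.038) and array weights (0.021) did so too. It was -0.08 against rat well 4 alone and -0.13 with the authors' rescaled values (adjusted p = 0.13).

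Among cofactors of the G protein cycle, 0 of 7 tested genes rose and 4 fell, with a median of -0.36 (all genes 23.4% higher, 32% lower, median -0.06). Both beta-arrestin genes, whose products uncouple receptors from G proteins, were among them: Arrb1 fell by 0.82 (SE 0.11, limma adjusted p = 1.6e-04) and Arrb2 by 0.61 (SE 0.07, adjusted p = 8.0e-05). Of the other 4 tested Arrb1 probes, 2 gave -0.65 and -0.77 and were called, and 2 gave -0.02 and -0.10 and were not. Gpsm3, which like Rgs14 holds GoLoco motifs, fell by 0.54 (SE 0.12, adjusted p = 0.0035), and Ric8b, a chaperone of alpha subunits, by 0.36 (SE 0.09, adjusted p = 0.0072), although a second Ric8b probe gave -0.24 and was not called.

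Of the effectors, 1 of 8 tested genes rose and 3 fell, with a median of -0.06, near the shares over all genes (23.4% higher, 32% lower, median -0.06). The adenylyl cyclase genes Adcy9 and Adcy7 fell by 0.79 (SE 0.10, limma adjusted p = 1.3e-04) and by 0.32 (SE 0.09, adjusted p = 0.013), although a second Adcy7 probe gave 0.34 and was not called. Pik3cg, a lipid kinase switched on by beta and gamma subunits, fell by 0.58 (SE 0.11, adjusted p = 0.0017). Against rat well 4 alone Adcy7 was -0.17 and Pik3cg -0.32, and neither was called. Rasgrp1, an exchange factor for Ras, was undetected in all 4 rat wells and at least 1.57-fold higher with human IAPP. It passed the detection filter through the human wells alone, and it is the single rise counted in this list. Its limma adjusted p of 8.9e-04 belongs to the fit of the values as read (difference 1.00, SE 0.17), not to the bound. That bound holds on the background-corrected scale alone. The log2 difference of Rasgrp1 was 0.25 without background correction and 0.27 with the authors' rescaled values.

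The receptors at the start of the pathway were represented by 8 tested leukocyte chemoattractant receptors, of which 1 rose and 4 fell, with a median of -0.65 (all genes 23.4% higher, 32% lower, median -0.06). C5ar1, the complement C5a receptor gene, rose by 1.13 (SE 0.13, limma adjusted p = 9.0e-05). Cx3cr1 fell by 0.86 (SE 0.11, adjusted p = 1.2e-04), Cxcr4 by 0.72 (SE 0.12, adjusted p = 8.8e-04) and Cxcr3, a chemokine receptor gene near background with human IAPP (3 of 4 wells detected), by 1.44 (SE 0.21, adjusted p = 3.2e-04; 0.42 lower with the authors' rescaled values). Ltb4r1, the leukotriene B4 receptor gene, was undetected in all 4 human wells and at least 1.48-fold lower. It passed the detection filter through the rat wells alone. Its limma adjusted p of 4.3e-04 belongs to the fit of the values as read (difference -0.91, SE 0.14), not to the bound. This bound too depends on the background correction. Without it the log2 difference of Ltb4r1 was -0.23, and with the authors' rescaled values -0.18.

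**Figure D5:**
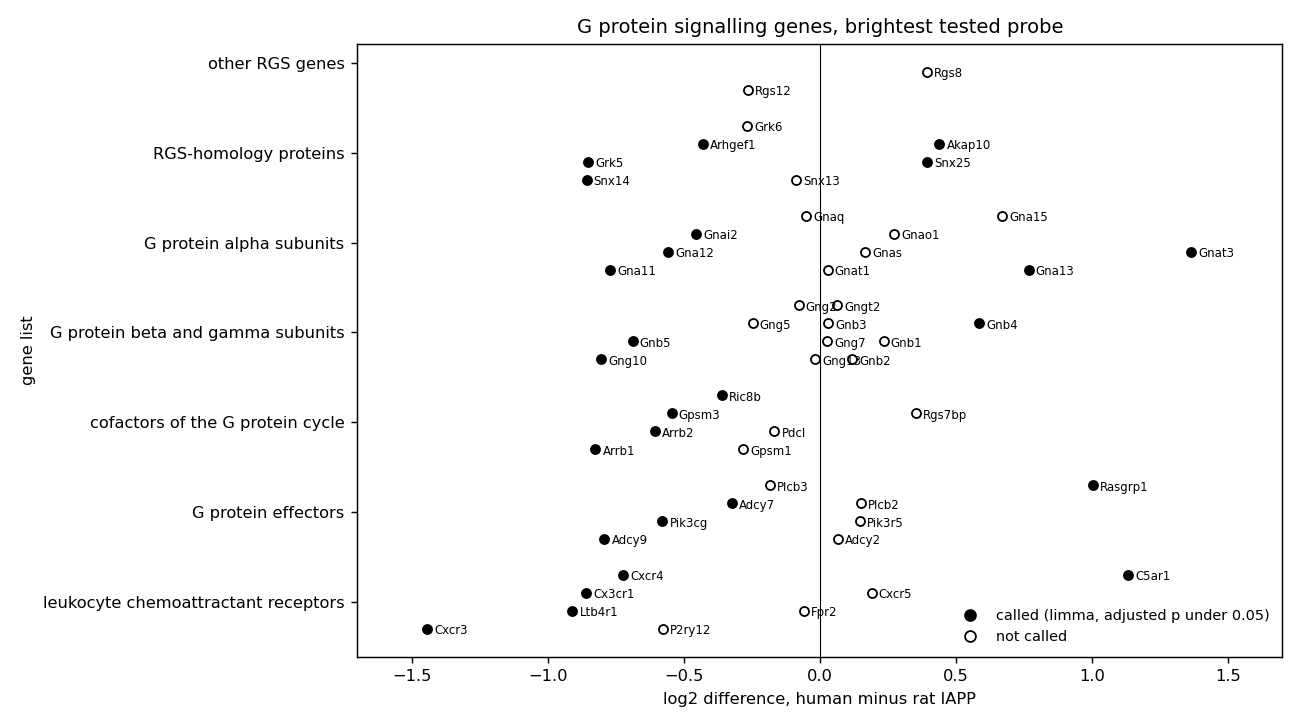
Log2 difference of human minus rat IAPP (horizontal axis) of the tested genes of each signalling list (vertical axis), 1 dot per gene by its brightest tested probe, filled where called by limma. Among called genes, more fell than rose in each of the 6 lists that hold one, as over all 7809 genes tested (32% lower, 23.4% higher). This did not hold in every setting. With the authors' rescaled values 3 alpha genes were called higher and 2 lower, and 4 beta or gamma genes higher and 2 lower.

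Genes with a profile most like that of the brightest Rgs1 probe, ILMN_2625377, were sought over the 8 arrays. The measure was the root mean square (RMS) difference between log2 values, each probe centred on its own mean. The other Rgs1 probes, with larger differences of 4.96 and 5.22, were not searched this way. The 5 nearest to probe ILMN_2625377 were Chst11 at 0.17, the chemokine gene Ccl4 at 0.22, the sphingosine kinase gene Sphk1 at 0.23, the transcription factor gene Egr1 at 0.24 and the fatty acid-binding protein gene Fabp3 at 0.25. Chst11 and Sphk1 were undetected in all 4 rat wells and at least 13.7-fold and 10.1-fold higher with human IAPP, and Ccl4 neared the scanner ceiling in all 4 human wells. For these 3 the difference between the groups is a bound. Their nearness to that Rgs1 probe therefore holds for the values as read and not for the true levels. The profile nearest to Rgs10 was that of the endothelin receptor gene Ednrb at 0.06, followed by Abca7, Pip4p2, Nek9 and Myl12b at 0.07 to 0.08, with log2 differences from -0.72 to -0.82. The measure takes in the difference between the groups as well as the order of wells within them.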

How the data were processed

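Per the file headers, the authors deposited a signal intensity for each probe and array with a detection p-value, and the table was deposited as not normalised. Undetected probes read at a median of 290.6 to 350.5 units, so background was not subtracted. The authors also deposited rescaled intensities, linear in those signals, whose method is not given in the sources used here; they served only as an alternative. Scanner, software and genome build are likewise not given. Symbols came from the platform annotation, brought up to date through RefSeq gene numbers, assembly GRCm38.p6 (23962 probes matched; 23978 have 1 symbol, 0 several, 1719 are unlisted).

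Signals were corrected for background in limma 3.58.1 under R 4.3.3 (normexp, negative controls inferred from detection p-values, offset 16), arrays were quantile normalised and log2 taken. The offset draws differences of dim probes towards 0. lmFit and eBayes gave the human minus rat IAPP difference, with no covariate, on the 11451 probes detected (p under 0.05) on 4 or more arrays, and p-values were adjusted over all of them (threshold 0.05). A listed gene was read by its brightest tested probe. For a probe that 1 group left undetected on its 4 arrays, "at least" marks a bound on the background-corrected, normalised scale. There each array of the dim group was set to the lowest value of any detected probe, unless the probe itself read higher. The number of arrays limits the precision.

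The genes, lists and naming rule were chosen with earlier results of these data known. Named were all RGS probes, the 5 nearest profiles and detected markers. In each list beside the RGS genes, up to 4 called genes with the smallest p were named. Where fewer were called, up to 2 uncalled ones were named too. Gna11, Gnaq, Arhgef1, Cxcr4, Gng2, Gngt2, Grk6 and second probes were added after their values were seen. Of the array pairs 0 were identical (smallest SD of their log2 difference 0.214). The fit, but not the background correction or normalisation before it, was tested on simulated data. Alternatives covered background, normalisation, the rescaled table, filters, variance model, array weights, a replicate block, rat well 4 as the sole control, each array left out, and 1 probe per gene.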

Additional observations from a re-analysis of the deposited data

Results flagged for a closer look

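In 9 of the 72 groups of 4 wells examined, the gap between 1 well and the nearest other, divided by the range of the group, was above the critical value of Dixon's test. Chance gives about 1 in 20 such groups. All values are normalised log2 intensities. Among the RGS genes, Rgs2 read 7.217 in human IAPP well 3, where the other human wells read 6.548 to 6.618. The Rgs3 probe ILMN_2610679 read 7.03 in rat IAPP well 4, against 6.207 to 6.286 in the other rat wells. Rgs12 read 5.927 in human well 1, against 6.176 to 6.221 in the other human wells.

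Among the other signalling genes, Arrb1 read 9.504 in human well 2, with the other human wells at 9.247 to 9.276. Ltb4r1 read 5.424 in human well 3, with the others at 5.956 to 6.041. Gnai2 read 13.89 in rat well 2, with the other rat wells at 14.15 to 14.19. Gnat3 read 5.054 in rat well 4, with the others at 5.967 to 6.138. Cx3cr1 read 11.89 in rat well 3, with the others at 12.22 to 12.24. Cxcr3 read 7.421 in rat well 1, with the others at 7.951 to 7.979.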

How the results depend on the processing

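Over 21 alternatives the Rgs1, Rgs10 and Rgs16 probes kept their direction and, wherever they were fitted, their call. The filters, the variance model, the replicate block and 1 probe per gene refit the same normalised values. In those settings the difference could not change, only the call. Log2 differences ranged from 3.96 to 4.79, 4.35 to 5.29 and 4.48 to 5.35 for the Rgs1 probes, from -1.05 to -0.54 for Rgs10 and from 0.37 to 1.51 for Rgs16. Rgs2 ranged from 0.19 to 0.83 and Rgs14 from -0.78 to -0.11. Median scaling turned the Rgs3 probe ILMN_1239208 to -0.0195 and Snx25 to -0.0529, and rat well 4 as the sole control turned Rgs8 to -0.25. Beyond the shift of all probes under median scaling, the cause was not tested.

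The member counts of 6 higher and 2 lower held whenever 1 array was left out, and 1 was lower with the authors' values. Higher were 4 with median scaling, with detection on all 8 arrays and with 1 probe per gene, and 5 with a detection p under 0.01 (the last 3 test fewer probes). Rat well 4 as the sole control gave 3 lower. Probes called higher numbered 2811, but 801 with median scaling, and 1860 genes with 1 probe per gene (fewer features tested). Median scaling left 0 RGS-homology genes, 1 alpha and 0 beta or gamma genes higher. The authors' values gave 4 beta or gamma genes and 2 receptors higher. Without background correction, with cyclic loess, with a trended prior and with array weights 2 beta or gamma genes were higher. Array weights also gave 4 alpha genes and 1 cofactor higher. A detection p under 0.01, and detection on all 8 arrays, left 1 alpha gene and 0 effectors higher, the second also 2 receptors lower. With rat well 4 as the sole control 1 RGS-homology gene and 0 beta or gamma genes were higher and 1 effector lower. With 1 array left out, 1 to 3 beta or gamma genes and 0 to 1 cofactors were higher, the highest counts being without rat well 4.

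Same-numbered wells showed little shared deviation (correlations of deviations -0.11, -0.01, 0.17 and -0.02). Of the 4 human arrays, 1 correlated best with its own number. These values gave no clear sign that the numbers pair the wells, but so few arrays cannot exclude it. With a replicate block 2675 probes were called higher and 3216 lower, and 6 RGS probes higher and 2 lower. With the authors' values 17 of the 26 named signalling genes moved to a smaller difference by over 1.5 times. Dim probes near background limit Rgs2, Rgs14, Rgs16 and Rgs18.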
